A study of Mus musculus with 6 samples.

Results

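Fatty acid oxidation is the route by which the liver turns long-chain fat into acetyl groups, ketone bodies and energy. Acyl chains are activated to acyl-CoA, carried into mitochondria by the carnitine shuttle and shortened by repeated rounds of dehydrogenation, hydration, oxidation and thiolysis, while peroxisomes handle very long and branched chains with enzymes of their own. In hepatocytes many of these genes are switched on by PPAR-alpha, a nuclear receptor that is activated by fatty acids and by fibrate drugs and binds DNA together with a retinoid X receptor. The values below describe 36 genes of this system: the receptor gene Ppara and genes of the carnitine shuttle, mitochondrial and peroxisomal beta-oxidation, acyl-CoA thioesterases, lipid uptake and storage, and further targets of the receptor. They were listed by symbol and found through the accession of each array probe, and they are 36 of the 18342 genes with a named probe. Of the 36, 16 act in mitochondria and 9 in peroxisomes, and the carnitine acetyltransferase Crat is found in both.

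The samples were livers of mice that lack fumarylacetoacetate hydrolase (Fah), the last enzyme of tyrosine breakdown, and that stay healthy while the drug NTBC blocks the pathway upstream. Each of 6 arrays held RNA of 1 liver sample from mice on a BL6 background, and NTBC was given in the drinking water, with 7.5 µg/ml as the full dose. Fah mice carried the allele Fah_del_tm1Mgo alone, and FCR mice carried the same Fah deletion together with deletions of Rag2 and of the common gamma chain, and so lack lymphocytes. Healthy Fah liver (n = 1) and normal FCR liver (n = 1) came from mice on continuous NTBC, labelled 100%. Tumour of Fah mice (2 arrays) and inflamed liver of FCR mice (n = 2) came from mice put through 2 courses of withdrawal, with 1 array of each labelled off and 1 labelled 2xoff/on. At which phase of a course each of these livers was collected is not settled by the labels, which give no age or sex. Genotype and tissue type change together in the withdrawn mice, since every withdrawn Fah sample is tumour and every withdrawn FCR sample is inflamed liver, so these cannot be told apart. Nothing in the labels says that the samples came from separate animals, so p-values measure only the spread between these samples. In the withdrawal contrasts a gene's own spread came only from the 2 tumours and the 2 inflamed livers. The 2 arrays of each such pair differed in regimen, so that spread is not one between replicates of a regimen.

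A level below is the log2 of a probe's processed signal minus the 75th percentile of its array, so that 0 is the 75th percentile and a step of 1 is a factor of 2. Levels of different genes come from different probes and are not compared with each other. Between 60.5% and 74.5% of the spots of an array were well above background, and all 36 genes were well above background on all 6 arrays and were tested. The 4 arrays labelled 100% or off shared 1 slide, and both 2xoff/on arrays lay on a second, so that among withdrawn samples regimen and slide cannot be told apart. The array of inflamed FCR liver labelled off stood apart from the rest on the second principal component of all genes, at 104.3 against -52.99 to 7.985. Fah was well above background on all 6 arrays, at -2.85 to -0.97, and the probe's position relative to the deletion is not annotated in the files, so it checks no label. Il2rg, the common gamma chain gene, was well above background only on the 3 Fah arrays, where it was at -3.40 to -1.94 against -7.74 to -6.70 in FCR mice, and Rag2 was below background on all 6. The mean level of 10 measured hepatocyte markers was 7.10 in healthy and 6.69 in normal liver and 5.25 to 6.17 on the 4 withdrawn arrays, so the liver identity of the samples was visible on every array. The mean level of 11 macrophage markers was -1.05 and -0.49 in healthy and normal liver and 1.15 to 3.07 on the withdrawn arrays, and that of 10 cell cycle genes was -2.52 and -2.49 against -0.34 to 2.05. The mean of 8 duct cell markers was -2.33 and -2.56 against -1.16 to 1.30, and that of 10 stellate cell and matrix markers was 0.85 and 0.79 against 1.27 to 3.45, both highest in the tumour labelled off. In such bulk tissue fewer hepatocytes and less RNA of a gene per hepatocyte cannot be told apart, and the part of these shifts in the results below was not tested.

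The sequence to which PPAR-alpha binds is a direct repeat of the half-site AGGTCA with 1 base between the copies. It is shown here because the genes were gathered as targets of this receptor. The RefSeq promoter table (GRCm38.p6, 250 bases before to 50 bases after each gene's start) held 31 of the 36 genes. The half-site was found on either strand in 10 of these genes (32.3%): Acadm, Acadvl, Acot12, Acot3, Acot4, Cd36, Cpt1a, Creb3l3, Fabp1 and Plin2. Counted by promoter, it was found in 11 of their 34, against 16.3% of all 32851 promoters. The exact repeat AGGTCANAGGTCA was found in none of the 31 and in 0.0396% of all promoters. A repeat with 1 free base in each half-site, AGGNCANAGGNCA, was found in 0.381% of all promoters and in 1 of the 31, that of Fabp1, which encodes the liver's fatty acid binding protein. The 13 bases lie on the reverse strand, start 67 bases before the gene's start and overlap 1 of the promoter's 2 half-sites; they stand in capitals in the first sequence. The promoters of Acaa1b and Pdk4, whose levels moved most in opposite directions after withdrawal, are printed for comparison and hold neither motif in this window.
Fabp1, plus strand, chr6:71199629-71199928: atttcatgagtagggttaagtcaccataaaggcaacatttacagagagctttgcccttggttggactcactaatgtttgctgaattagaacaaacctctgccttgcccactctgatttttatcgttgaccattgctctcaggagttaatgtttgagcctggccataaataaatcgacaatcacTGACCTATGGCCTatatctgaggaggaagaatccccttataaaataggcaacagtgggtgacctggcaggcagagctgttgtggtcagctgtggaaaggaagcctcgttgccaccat
Acaa1b, minus strand, chr9:119157044-119157343: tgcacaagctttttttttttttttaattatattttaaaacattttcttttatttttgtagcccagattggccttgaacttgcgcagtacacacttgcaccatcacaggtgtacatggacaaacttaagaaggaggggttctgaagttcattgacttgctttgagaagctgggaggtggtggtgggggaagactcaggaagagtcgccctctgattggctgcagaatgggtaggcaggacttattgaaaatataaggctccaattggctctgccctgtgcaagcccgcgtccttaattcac
Pdk4, minus strand, chr6:5496229-5496528: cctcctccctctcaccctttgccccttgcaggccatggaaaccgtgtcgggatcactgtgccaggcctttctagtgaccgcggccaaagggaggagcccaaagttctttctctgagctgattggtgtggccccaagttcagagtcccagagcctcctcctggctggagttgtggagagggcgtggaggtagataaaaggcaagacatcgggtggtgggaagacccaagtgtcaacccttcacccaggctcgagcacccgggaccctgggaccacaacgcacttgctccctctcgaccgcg
A match of letters describes the sequence only, and no binding was measured.

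Withdrawal of NTBC went with lower levels of most of the oxidation genes in both genotypes, and a few of the receptor's targets went the other way. With both genotypes weighted equally, 26 of the 36 genes were lower in withdrawn than in continuously treated liver, against 50.8% of all genes, with a median log2 difference of -0.81 against -0.02 over all 15382 genes tested. Of the 36, 3 passed the test (limma, adjusted p under 0.05 over all genes), where 11.9% of all genes did: Acsl1 and Acaa1b fell and Pdk4 rose. A further 12 genes were lower and 3 higher at an unadjusted p under 0.05 only, which makes 14 lower and 4 higher in all, against a background of 9.99% lower and 15.9% higher. On all 4 withdrawn arrays 15 of the 36 genes (41.7%) lay below both continuous arrays, against 20.9% of all genes. The heat map of the 36 genes shows blue in most cells of the withdrawn arrays and red in the cells of Acot2, Acot3, Cd36 and Pdk4.

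**Figure D1:**
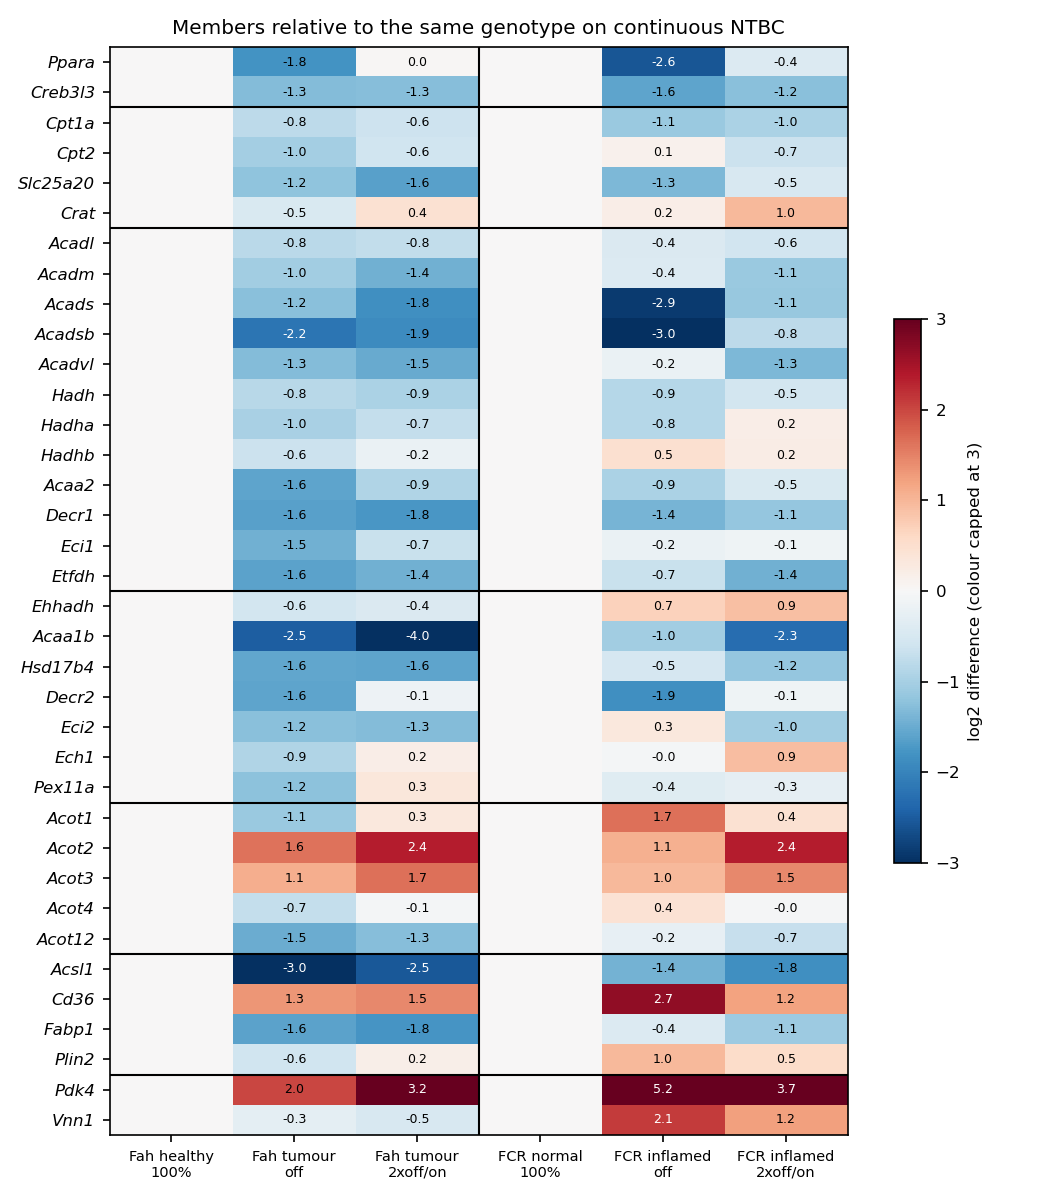
Log2 difference of each of the 36 genes (rows, ordered by role) on each array (columns) from the continuous-NTBC array of the same genotype, which is 0 by construction. Colours are capped at 3 and the printed figures are the differences: Acsl1 and Acaa1b are blue on all 4 withdrawn arrays, and Pdk4, at 2.01 to 5.20, is red on all 4.

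Part of this shift was shared by bright probes of any kind. The 3512 tested genes with a mean level of 2 or more had a median of -0.23 in the same contrast, against -0.82 for the 27 of the 36 genes that are that bright. In tumour against healthy liver these medians were -0.40 and -0.90, in inflamed against normal liver -0.09 and -0.51, and in tumour against inflamed liver -0.42 and -0.94. After quantile normalization, which gives every array the same distribution, the bright genes as a whole lay at 0.02, 0.03, 0.00 and 0.00 in these 4 contrasts, and the 27 genes at -0.44, -0.46, -0.39 and -0.32. The median of all 36 was then -0.43 over both genotypes, and Acsl1 and Pdk4 passed the test while Acaa1b did not (adjusted p = 0.0951). The sizes given below are those under the 75th percentile, and the size of a median shift in tumour depends on the scaling. By their medians the 10 measured hepatocyte markers fell further than the 36 genes. These medians were -1.11 over both genotypes, -1.29 in tumour and -0.96 in inflamed liver, against -0.81, -0.87 and -0.49 for all 36. In tumour against inflamed liver the markers had a median of 0.11 and the 36 genes one of -0.76. Whether the 36 changed beyond hepatocyte genes was not tested.

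**Figure D2:**
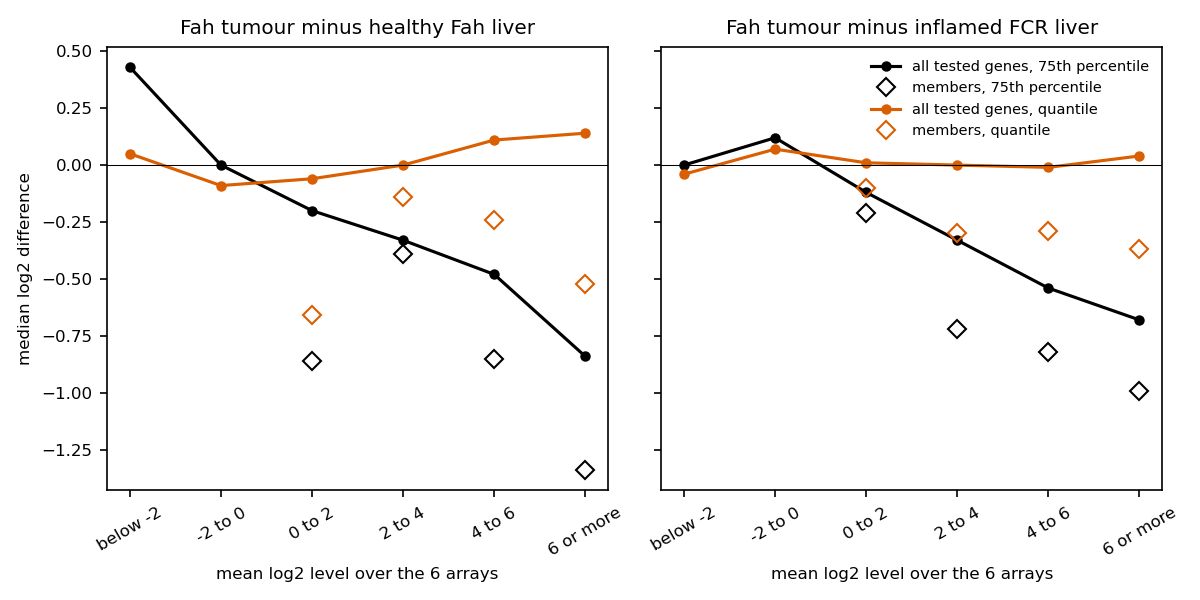
Median log2 difference (vertical axis) of all tested genes (lines) and of the oxidation genes (diamonds, where at least 5 fall in a band) by mean level over the 6 arrays (horizontal axis), for tumour against healthy liver and for tumour against inflamed liver. With the 75th percentile (black) the line of all genes falls from 0.43 to -0.84 on the left as genes become brighter, and with quantile normalization (orange) it stays between -0.09 and 0.14.

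The regulators come first. Ppara encodes the receptor itself. Its level was 2.17 in healthy Fah liver, 0.38 in the tumour labelled off and 2.21 in the tumour labelled 2xoff/on, and 3.35 in normal FCR liver, 0.79 in the inflamed liver labelled off and 2.93 in that labelled 2xoff/on. Both off arrays were thus low, at -1.79 and -2.56 from their genotype's continuous level, and both 2xoff/on arrays stood near it, at 0.04 and -0.42. The difference between withdrawn and continuous liver did not pass the test (-1.18 ± 0.70 SE, adjusted p = 0.342). Between the withdrawal regimens Ppara was 1.98 ± 0.36 higher under 2xoff/on than under off, with differences of 1.82 in Fah and 2.14 in FCR mice, and missed the threshold at an adjusted p of 0.0546. Creb3l3, a liver transcription factor that acts with PPAR-alpha in fasting, had levels of 5.92, 4.61 and 4.64 in healthy, tumour off and tumour 2xoff/on, and 6.08, 4.49 and 4.83 in the FCR samples in the same order. All 4 withdrawn arrays lay between 4.49 and 4.83 below both continuous arrays, without overlap, at a mean difference of -1.36 ± 0.38 (adjusted p = 0.0522).

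**Figure D3:**
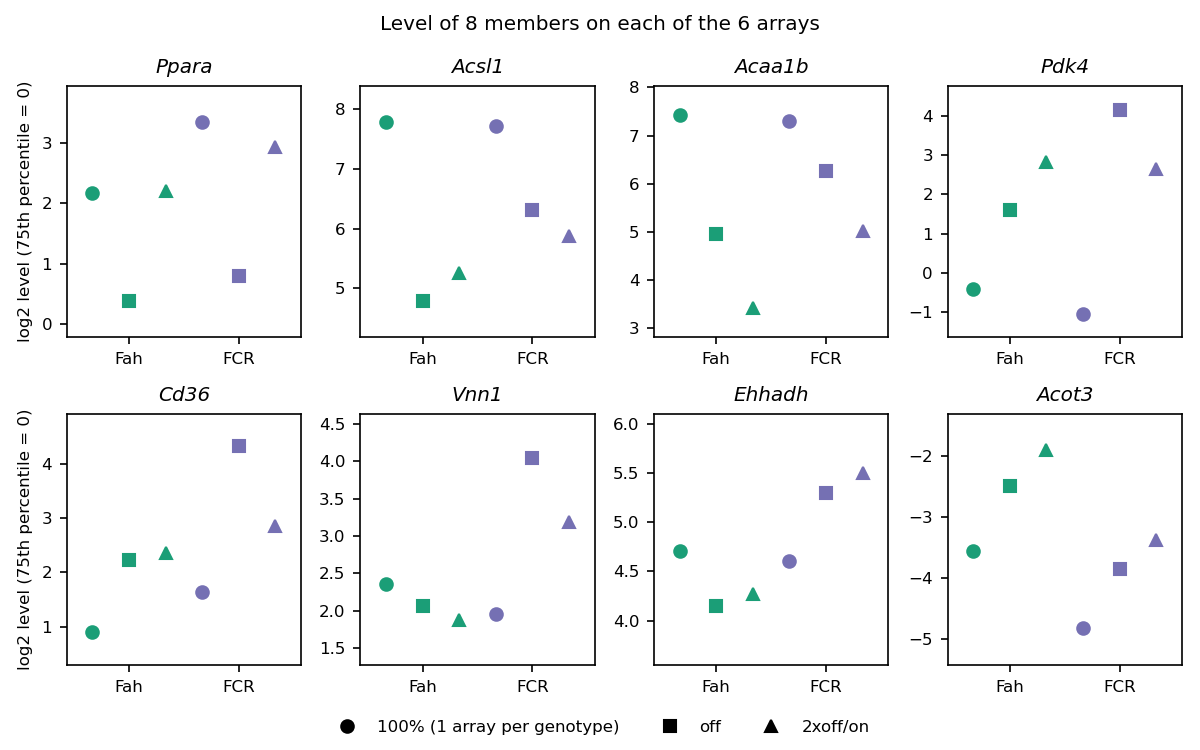
Level (log2, with the array's 75th percentile at 0) of 8 genes on each of the 6 arrays, with Fah samples in green and FCR samples in violet, and circles for continuous NTBC, squares for off and triangles for 2xoff/on. Ppara is lowest on both squares, Acsl1 and Acaa1b are highest on both circles, and Ehhadh and Vnn1 lie below the circle in Fah and above it in FCR mice.

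The carnitine shuttle moves acyl groups across the inner mitochondrial membrane, and none of its 4 genes passed the test in any comparison. Cpt1a, the carnitine palmitoyltransferase of the outer membrane and the rate-setting step, had levels of 4.79 in healthy liver, 4.01 and 4.17 in tumour, 4.99 in normal liver and 3.88 and 4.03 in inflamed liver. The withdrawn arrays did not overlap the continuous ones, and the mean difference was -0.86 ± 0.38 (adjusted p = 0.195). A second probe of Cpt1a gave -0.82 in tumour and -2.04 in inflamed liver, against -0.70 and -1.03 for the probe used. The size in inflamed liver thus depended on the probe. Slc25a20, the carnitine-acylcarnitine translocase, went from 2.78 to 1.57 and 1.14 in Fah and from 2.48 to 1.14 and 2.00 in FCR mice, a difference of -1.17 ± 0.45 (adjusted p = 0.137), again without overlap. Cpt2, which returns the acyl group to CoA inside, was lower in both tumours (4.88 and 5.31 against 5.90) but not in the inflamed liver labelled off (6.24 against 6.11). Crat, which handles short acyl groups, differed by 0.30 ± 0.47 over both genotypes and lay above its genotype's continuous array on 3 of the 4 withdrawn arrays.

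Of the 12 genes of mitochondrial beta-oxidation, all 12 had a difference below 0 over both genotypes, against 50.8% of all genes, with a median of -0.98, and none passed the test. At an unadjusted p under 0.05, 7 of them were lower, against 9.99% of all genes, and none was higher, against 15.9%. The largest differences were those of dehydrogenases for short chains. Acads, the short-chain acyl-CoA dehydrogenase, was at 3.46 in healthy liver, 2.21 and 1.63 in tumour, 3.5 in normal liver and 0.62 and 2.36 in inflamed liver. Acadsb, which works on short branched chains from isoleucine, was at 2.51, 0.33 and 0.63 in the Fah samples and at 2.34, -0.64 and 1.55 in the FCR samples. For both genes every withdrawn array lay below both continuous arrays, and the lowest array was the inflamed liver labelled off. The mean differences were -1.77 ± 0.55 for Acads (adjusted p = 0.0725) and -1.96 ± 0.61 for Acadsb (adjusted p = 0.0751), or 29.3% and 25.7% of the continuous level. Without that array, which stood apart on the second component, the differences were -1.34 for Acads and -1.41 for Acadsb. Both genes passed the test with each array's median and under the normexp background correction, where 9.86% and 10.4% of all genes passed. Neither passed with quantile normalization (limma, adjusted p of 0.156 and 0.134) or with the authors' deposited values (0.175 and 0.139). The same held with a common floor, with no filter or a stricter one, with the mean of probes and without a trend.

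Decr1, the mitochondrial dienoyl-CoA reductase for polyunsaturated chains, had levels of 0.63, -1.0 and -1.12 in healthy liver and tumour and 0.87, -0.52 and -0.28 in normal and inflamed liver. Etfdh, which passes the electrons of the dehydrogenases to ubiquinone, had 5.64, 4.04 and 4.20 in Fah and 5.94, 5.27 and 4.51 in FCR samples. Neither gene's withdrawn arrays reached the continuous ones, at differences of -1.49 ± 0.43 (adjusted p = 0.0606) and -1.28 ± 0.41 (adjusted p = 0.0794). The second probe of each gene gave differences of the same sign, -1.94 and -1.63 in tumour against healthy and -1.49 and -1.64 in inflamed against normal liver.

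The enzymes for medium and very long chains differed between the withdrawn FCR samples, though less than other genes of the set. From off to 2xoff/on Acadm changed by -0.69 and Acadvl by -1.15, and Acads by 1.74 and Acadsb by 2.19. These are single arrays on different slides. Between the regimens neither Acadm nor Acadvl passed the test (limma, adjusted p of 0.531 and 0.487). Acadm, the medium-chain dehydrogenase, was at 6.60, 5.55 and 5.15 in the Fah samples and at 7.10, 6.69 and 5.99 in the FCR samples. Acadvl, the very-long-chain dehydrogenase, was at 7.10, 5.79 and 5.59 and at 7.30, 7.11 and 5.96. In inflamed liver labelled off both stood close to the normal liver, at -0.41 and -0.19 from it, while the other 3 withdrawn arrays were at -1.05 to -1.51 from their continuous counterparts. Over both genotypes the differences were -1.0 ± 0.41 (adjusted p = 0.158) and -1.08 ± 0.44 (adjusted p = 0.159). Acaa2, the mitochondrial thiolase, was lower on all 4 withdrawn arrays (6.63 to 7.80 against 8.21 and 8.25), with -0.97 ± 0.40 (adjusted p = 0.17).

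The remaining mitochondrial enzymes differed less. Hadh, the dehydrogenase for short and medium chains, lay between 4.23 and 4.55 on the withdrawn arrays and at 5.18 and 5.09 on the continuous ones, and Acadl, the long-chain dehydrogenase, between 2.34 and 2.86 against 3.14 and 3.29. Eci1, which shifts double bonds, was lower in tumour (3.80 and 4.58 against 5.25) and close to normal liver in both inflamed samples (-0.20 and -0.12). Hadha and Hadhb encode the alpha and beta subunits of the same enzyme, the trifunctional protein, and differed by -0.58 ± 0.46 and -0.03 ± 0.39. Hadhb was at 4.88 in healthy liver, 4.23 and 4.68 in tumour, 4.95 in normal liver and 5.44 and 5.18 in inflamed liver, so it was lower in both tumours and higher in both inflamed livers than in its continuous counterpart.

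The peroxisomal enzymes varied more among themselves. Acaa1b, a peroxisomal thiolase and a known target of fibrates in rodents, was at 7.43 in healthy liver, 4.96 and 3.42 in tumour, 7.31 in normal liver and 6.26 and 5.02 in inflamed liver. Every withdrawn array was below both continuous arrays, and in each genotype the 2xoff/on array was the lower. It fell by 2.45 ± 0.55 over both genotypes (adjusted p = 0.0228), to 18.3% of the continuous level, and this call was lost under quantile normalization, with the authors' deposited values, on slide 1 alone and with a common floor for dim values (adjusted p of 0.0951, 0.114, 0.0652 and 0.176). In tumour alone the difference was -3.24 ± 0.78, which just missed the threshold (adjusted p = 0.0505). A near copy of the gene, Acaa1a, differed by -0.99 ± 0.42 (adjusted p = 0.177), and whether the probes tell the copies apart was not tested.

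Ehhadh, the bifunctional enzyme of the peroxisome and a further classic target of the receptor, behaved differently from Acaa1b. It was at 4.71 in healthy liver and 4.15 and 4.27 in tumour, and at 4.60 in normal liver and 5.30 and 5.50 in inflamed liver. Neither difference passed the test (-0.50 ± 0.54 in Fah, adjusted p = 0.731, and 0.80 ± 0.54 in FCR mice, adjusted p = 0.605). Hsd17b4, the bifunctional enzyme for branched chains and bile acid precursors, was lower on all 4 withdrawn arrays than on both continuous ones (5.17, 5.16, 6.47 and 5.83 against 6.74 and 6.98), with -1.20 ± 0.39 (adjusted p = 0.0877).

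As with Ppara, the level of Decr2, the peroxisomal dienoyl-CoA reductase, differed between the off and the 2xoff/on arrays, which lay on different slides. It was at 3.82 in healthy liver, 2.24 in tumour off and 3.67 in tumour 2xoff/on, and at 3.97, 2.12 and 3.85 in the FCR samples in the same order. The 2xoff/on arrays exceeded the off arrays by 1.58 ± 0.34, and the difference missed the threshold (adjusted p = 0.0833). Eci2, Ech1 and Pex11a are an isomerase for unsaturated chains, a dienoyl-CoA isomerase and a factor of peroxisome division. They differed by -0.82 ± 0.46, 0.04 ± 0.49 and -0.39 ± 0.50 over both genotypes. Each was lower in tumour off than in healthy liver, at -0.91 to -1.25, but the other arrays were mixed. In tumour 2xoff/on they were at -1.31, 0.21 and 0.33 from healthy liver. From normal liver they were at 0.31, -0.05 and -0.36 in inflamed liver off and at -1.04, 0.91 and -0.28 in inflamed liver 2xoff/on.

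The mitochondrial and peroxisomal sets were compared by their medians, as a description. Over both genotypes the 16 mitochondrial genes had a median difference of -0.92 and the 9 peroxisomal genes one of -0.39. Without the tumour labelled 2xoff/on these medians were -0.90 and -0.78, and without the tumour labelled off they were -0.83 and 0.01, so the size of the gap depended on which tumour was included. On single arrays the mitochondrial median was -1.13 in tumour off, -0.93 in tumour 2xoff/on, -0.76 in inflamed liver off and -0.62 in inflamed liver 2xoff/on. The peroxisomal medians on the same arrays were -1.24, -0.15, -0.05 and -0.12. The peroxisomal set was thus as low as the mitochondrial one only in tumour off, and elsewhere its genes were spread on both sides of 0. In tumour against healthy liver the gap of -0.65 between the set medians became 0.11 without the tumour labelled 2xoff/on and -0.15 under quantile normalization. In tumour against inflamed liver the order was turned, with -0.50 for mitochondrial and -0.99 for peroxisomal genes, and this gap of 0.49 became -0.08 without the tumour labelled off. Leaving out Ech1 and Eci2, which are also found in mitochondria, kept the peroxisomal median over both genotypes at -0.39. The thioesterases Acot3 and Acot4 mattered more. The 7 other peroxisomal genes had a median of -0.82, against -0.98 for the 12 genes of mitochondrial beta-oxidation. On the single arrays in the order above these 7 had medians of -1.25, -0.44, -0.36 and -0.28, and the 12 had -1.28, -1.20, -0.76 and -0.69. The gap over both genotypes thus also depended on which genes were counted as peroxisomal.

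**Figure D4:**
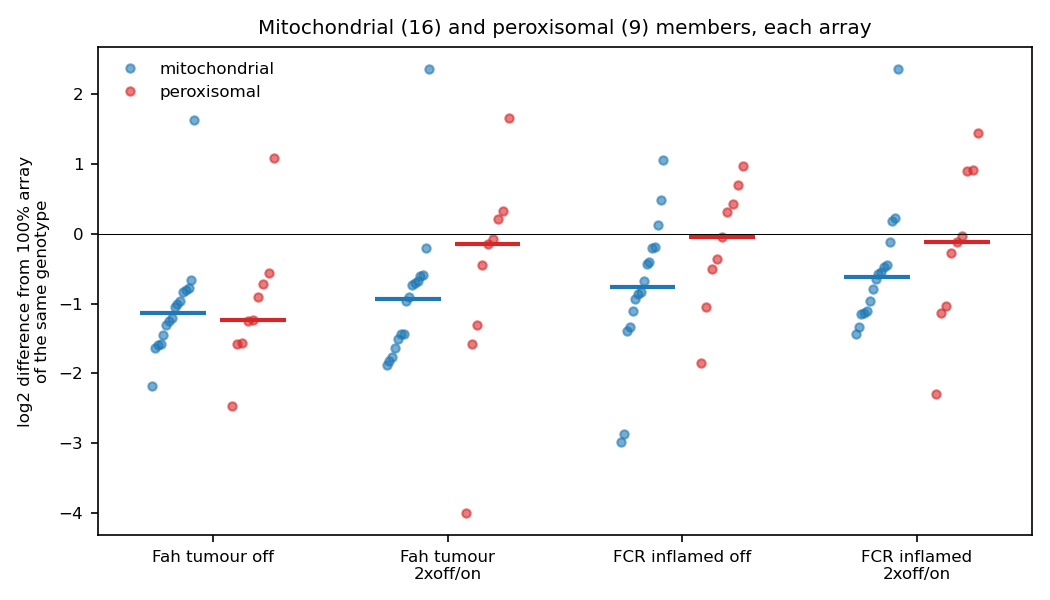
Log2 difference of the 16 mitochondrial (blue) and 9 peroxisomal genes (red) on each withdrawn array from the continuous array of the same genotype, with each point a gene and each bar the set's median. The blue bars lie between -1.13 and -0.62 on all 4 arrays, and the red bars lie at -1.24 in tumour off and between -0.15 and -0.05 on the other 3.

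Acyl-CoA thioesterases release free fatty acids from CoA. Acot2, the mitochondrial form, was at -3.02 in healthy liver, -1.39 and -0.66 in tumour, -3.10 in normal liver and -2.04 and -0.75 in inflamed liver. Acot3, a peroxisomal form, was at -3.56, -2.48 and -1.90 in the Fah samples and at -4.83, -3.85 and -3.38 in the FCR samples. Both were higher on each withdrawn array than in the continuous liver of the same genotype, by 1.85 ± 0.56 (adjusted p = 0.0667) and 1.29 ± 0.54 (adjusted p = 0.168). The probe of Acot3 is dim, and all 5072 tested genes with a mean level below -2 had a median of 0.43 in this contrast. With normexp the difference of Acot3 was 0.19, and in tumour against inflamed liver it went from 1.43 to 0.52. Acot12, a cytosolic form that acts on acetyl-CoA, was lower on all 4 withdrawn arrays (2.13 to 3.55 against 3.62 and 3.80), by -0.93 ± 0.40 (adjusted p = 0.186). Acot1, the cytosolic member of the same cluster, was at 3.98, 2.87 and 4.30 in Fah and 3.49, 5.15 and 3.94 in FCR samples, highest in inflamed liver off and lowest in tumour off. Acot4 differed by -0.10 ± 0.45. Acot1 to Acot4 are close relatives in sequence, and cross-hybridization between their probes was not tested.

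Genes of lipid uptake, activation, binding and storage held the clearest fall. Acsl1, the main acyl-CoA synthetase of liver, which commits fatty acids to oxidation or storage, was at 7.79 in healthy liver, 4.78 and 5.25 in tumour, 7.72 in normal liver and 6.31 and 5.88 in inflamed liver. The 4 withdrawn arrays were all below both continuous arrays and the tumours were the lowest. It fell by 2.78 ± 0.56 in tumour (adjusted p = 0.026), to 14.6% of healthy liver, as the only one of the 36 genes to pass in that comparison, in which 5.04% of all genes passed. In inflamed liver the difference was -1.62 ± 0.56 and did not pass (adjusted p = 0.216), and the responses of the genotypes did not differ by the test (-1.16 ± 0.79, adjusted p = 1). Over both it fell by 2.20 ± 0.39 (adjusted p = 0.009). In tumour the call was lost without the tumour labelled off (-2.54, adjusted p = 0.0737) and under quantile normalization (-1.94, adjusted p = 0.0702), and also with the authors' deposited values (-1.89), with a common floor and without a trend in the prior variance. The other 2 probes of the gene gave -3.38 and -3.18 in tumour.

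Fabp1, which carries fatty acids in the hepatocyte's cytosol, was at 8.93, 7.33 and 7.16 in the Fah samples and 9.32, 8.91 and 8.23 in the FCR samples. Withdrawn samples were below both continuous ones throughout, the inflamed liver labelled off only just so, with -1.22 ± 0.39 (adjusted p = 0.0816). Cd36, a fatty acid transporter of the plasma membrane that macrophages also carry, went the other way: it was at 0.90 in healthy liver, 2.23 and 2.35 in tumour, 1.65 in normal liver and 4.32 and 2.86 in inflamed liver. Its groups did not overlap, with 1.66 ± 0.50 (adjusted p = 0.0658), and the macrophage markers given above were higher on the same arrays; their part in it was not tested. Plin2, the coat protein of lipid droplets, was at 7.20, 6.61 and 7.38 in Fah and 7.17, 8.15 and 7.72 in FCR samples, higher in both inflamed livers and on either side of healthy liver in the tumours.

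Pdk4 encodes the kinase that shuts pyruvate out of oxidation when fat is burned. It was at -0.41 in healthy liver, 1.59 and 2.83 in tumour, -1.04 in normal liver and 4.16 and 2.64 in inflamed liver. All 4 withdrawn arrays lay above both continuous arrays, and the inflamed liver labelled off was the highest. It rose by 4.44 ± 0.81 in inflamed liver (adjusted p = 0.0337), or 21.7-fold, as the only one of the 36 genes to pass where 1.76% of all genes did, and by 3.53 ± 0.57 over both genotypes (adjusted p = 0.0059). Without the inflamed liver labelled off it still rose by 3.69 (adjusted p = 0.02), and the call in inflamed liver was lost under quantile normalization at nearly the same size (4.28, adjusted p = 0.0635). It was also lost with no filter, with a common floor, without a trend and with the authors' deposited values (4.03, adjusted p = 0.0917). In tumour it differed by 2.63 ± 0.81 (adjusted p = 0.107). Vnn1, a pantetheinase and strong target of the receptor in liver, was at 2.36, 2.06 and 1.87 in Fah and 1.95, 4.04 and 3.19 in FCR samples. It was thus higher in both inflamed livers, by 1.66 ± 0.61 (adjusted p = 0.251), and slightly lower in both tumours, by -0.39 ± 0.61.

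Set side by side, the responses in the genotypes had a median of -0.87 in Fah and -0.49 in FCR mice, against -0.08 and 0.04 for all genes. Of the 36 genes 26 (72.2%) lay below healthy liver in both tumours, against 42.8% of all genes, and 21 (58.3%) lay below normal liver in both inflamed samples, against 31.8%. The counts above were 4 (11.1%, against 35.8%) and 10 (27.8%, against 35.4%). The difference between the responses passed the test for none of the 36 and for none of all genes tested (limma; 331 of all genes at an unadjusted p under 0.05, and with normexp 7 after adjustment), and among the 36 only Vnn1 had an unadjusted p under 0.05, against 1.13% of all genes that were lower in tumour by that measure. Hadhb, Ehhadh and Vnn1 were lower in both tumours and higher in both inflamed livers than their continuous counterparts, against 3.81% of all genes, and no gene of the 36 had the opposite pattern, which 2.67% of all genes had. For Vnn1 the difference was -2.06 ± 0.87 (adjusted p = 1). The scatter of both responses shows 29 of the 36 genes above the line of equal response, where the tumour response is the lower one, against 53.2% of all genes. Among genes with a mean level of 2 or more, however, 73.3% lay there, as did 23 of the 27 genes of the set that are that bright. With quantile normalization 24 of the 36 did, and the median difference between the responses went from -0.55 to -0.25.

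**Figure D5:**
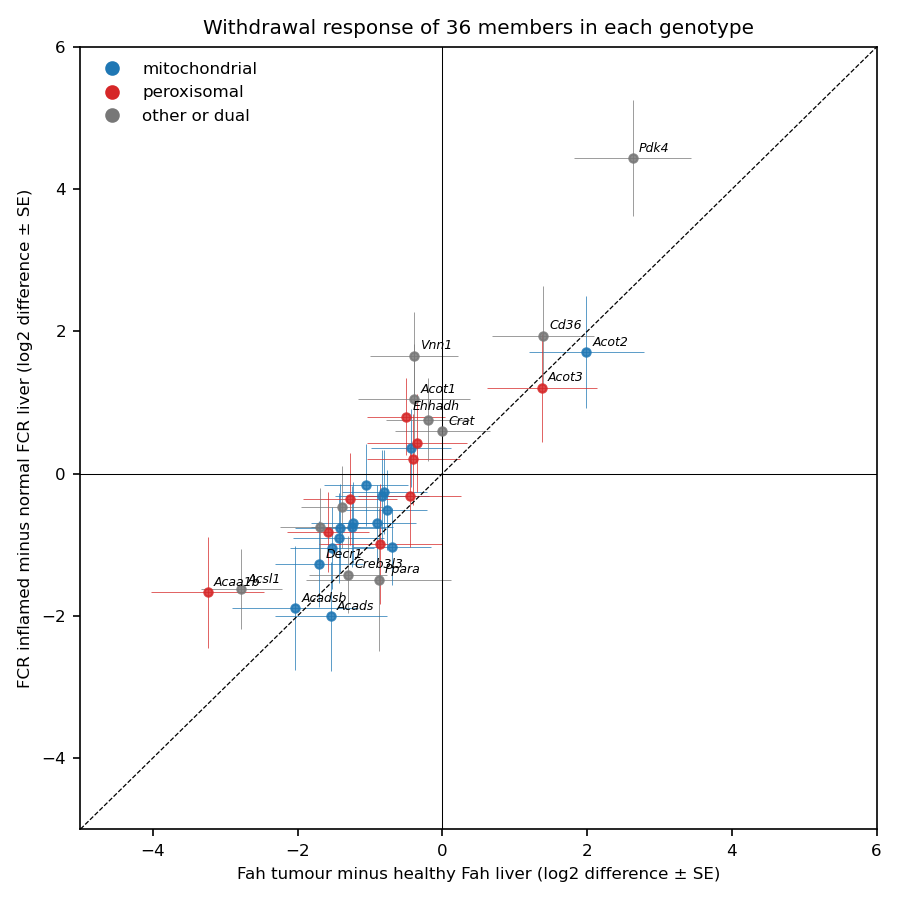
Log2 difference ± SE of each of the 36 genes in inflamed against normal FCR liver (vertical axis) and in tumour against healthy Fah liver (horizontal axis), with mitochondrial genes in blue, peroxisomal in red and others in grey, and the dashed line marking equal responses. Acsl1, at -2.78 and -1.62, and Acaa1b, at -3.24 and -1.67, lie far to the left, Pdk4, at 2.63 and 4.44, at the upper right, and Vnn1, at -0.39 and 1.66, above 0 in FCR mice alone.

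Tumour and inflamed liver had the same regimens and differed in genotype and tissue type. None of the 36 genes passed the test, where 0.215% of all genes did. The tumour levels were nevertheless lower for 31 of the 36, against 57.5% of all genes and 80.2% of those with a mean level of 2 or more, with a median of -0.76 against -0.13 over all genes, and for 19 (52.8%) both tumours lay below both inflamed livers, against 23.8% of all genes. At an unadjusted p under 0.05, 8 were lower (Eci1, Ehhadh, Acaa1b, Eci2, Acot12, Acsl1, Fabp1 and Vnn1) and Acot3 alone was higher, against 4.94% and 4.21% of all genes. Vnn1 had the largest of these differences, -1.65 ± 0.50 (adjusted p = 0.309), and passed only with slide as a block, where 987 of 15288 genes (6.46%) passed, or without the inflamed liver labelled 2xoff/on, where 704 (4.63%) did. With quantile normalization 27 of the 36 were below 0 and the median was -0.28.

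Over all 3 regimens, with Fah and FCR samples paired by regimen, none of the 36 genes passed (0.312% of all genes did). Fah samples were lower in every regimen for 16 of the 36 (44.4%, against 24.5% of all genes) and higher in every regimen for Acot2 and Acot3, against 13.2% of all genes. Of genes with a mean level of 2 or more, 79.3% had a difference below 0, as did 25 of the 27 genes of the set that are that bright. With quantile normalization 52.3% of bright genes and 20 of the 27 did. The median of all 36 then went from -0.58 to -0.18. Acot3 had the largest difference, 1.37 ± 0.37 (adjusted p = 0.263). It was 1.26, 1.38 and 1.48 in the 3 pairs, so that a gap was already there on continuous NTBC. The probe of Acot3 is dim, at -4.83 to -1.90, and with normexp the difference was 0.49. Its size thus depended on the background correction. Between the lone arrays of healthy Fah and normal FCR liver, which allow no test, Acot3 was the only one of the 36 that was higher in Fah liver by 1 or more, and Ppara the only one lower by 1 or more (-1.19), where 3.02% and 5.27% of all genes passed those sizes.

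Between the withdrawal regimens none of the 36 genes passed (0.793% of all genes did). Ppara and Decr2 had the smallest p-values and passed with normexp (limma, adjusted p of 0.00211 and 0.0157), where 4.32% of all genes passed. Ppara also passed without a filter, where 1.13% of all genes did. Without the tumour labelled 2xoff/on its difference was 1.95. At an unadjusted p under 0.05, Ppara, Crat, Acadsb, Decr2, Ech1 and Acot2 were higher under 2xoff/on and Acaa1b was lower, against 9.07% and 8.07% of all genes. Acaa1b differed by -1.39 ± 0.50 and Ech1 by 1.04 ± 0.38. The direction of the whole set depended on the scaling here: 23 of the 36 were above 0 with the 75th percentile, against 48.4% of all genes, and 12 with each array's median, which moved the median of all genes from -0.03 to -0.44.

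The comparison that the series' design names, both tumours against normal FCR liver together with the inflamed liver labelled 2xoff/on, gave no call among the 36 genes or among all 15175 tested (limma; 1755 of all genes at an unadjusted p under 0.05, and 1 after adjustment with each array's median). Of the 36 genes 31 were below 0, against 59.2% of all genes, with a median of -0.86 against -0.15 over all genes, and for 25 (69.4%) both tumours lay below both control samples, against 23.9%. Acaa1b and Pdk4 differed by -1.98 ± 0.90 and 1.41 ± 1.22, and the control group here joined a continuous and a withdrawn sample. Without that withdrawn sample, which leaves 3 arrays with 1 control, 15 of the 36 genes passed, as did 2200 of 14918 genes tested (14.7%).

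Other genes of the system were described from lists chosen with results of these data known, and their counts of calls over both genotypes stand against 11.9% of all 15382 genes. Of 19 other genes of peroxisomal beta-oxidation, 7 fell over both genotypes, with a median of -1.06. Nudt7, a peroxisomal CoA hydrolase, fell by 3.49 ± 0.41 (adjusted p = 0.00166). Acot5, a peroxisomal thioesterase, was well above background on the 4 withdrawn arrays only, so that it entered the test through the group where it is high, and its difference is not counted. Scp2, Abcd3, Hacl1, Phyh and Slc27a2 also fell. Of 18 genes of peroxisome biogenesis and matrix, all 18 were below 0 with a median of -0.97, and 4 fell: Pex5, Pex6, Pxmp2 and the catalase gene Cat.

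Of 24 other genes of mitochondrial fatty acid breakdown, 5 fell (Acad11, Acsm1, Acsm5, Mlycd and Pccb) and Acot9 rose, with a median of -0.98 and against 11.9% of all genes called. Acsm5, a medium-chain acyl-CoA synthetase, fell by 2.49 ± 0.45 (adjusted p = 0.009). Cpt1c, the form of the transferase best known from neurons, was well above background on the 4 withdrawn arrays only and is not counted, as for Acot5.

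Microsomal omega-oxidation, in which cytochromes of the Cyp4a family are classic targets of PPAR-alpha, split by gene. Cyp4a12a was at 6.65, 1.98 and 1.89 in the Fah samples and 7.45, 5.74 and 4.80 in the FCR samples, fell by 4.72 ± 0.60 in tumour (adjusted p = 0.00616) and was lower in tumour than in inflamed liver by 3.33 ± 0.49 (adjusted p = 0.0433). Cyp4a10 was at 4.82, 3.1 and 4.05 in the Fah samples and 4.42, 7.20 and 5.62 in the FCR samples. Cyp4a14 was at 5.18, 3.83 and 4.74 and at 4.60, 7.56 and 4.75, so its high value was that of inflamed liver off, the array that stood apart. Neither passed a test. Cyp4a12b and Cyp2j5 fell over both genotypes, so 3 of the 7 genes of this list did, against 11.9% of all genes called.

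Of 25 tested further targets of the receptor, 5 fell, among them Cyp8b1, Mgll, Slc27a5 and Retsat, and 3 rose (Ucp2, Cidea and Cidec) over both genotypes. Cidec, a lipid droplet protein that makes droplets fuse, was at 0.91, 2.69 and 4.24 in the Fah samples and 0.88, 5.42 and 5.23 in the FCR samples and rose by 4.45 ± 0.71 in inflamed liver (adjusted p = 0.0208). Fgf21, the fasting hormone, was at 2.14, 1.25 and 1.50 in Fah and 2.14, 5.09 and 3.35 in FCR samples, higher in both inflamed livers and lower in both tumours, and passed no test. Among 7 adipocyte markers other than Cidec the mean level was -3.44 to -3.14 in the Fah samples and -3.03, -1.84 and -1.09 in the FCR samples. In the Fah samples this mean joined opposite shifts. Cfd was at 0.73, -4.36 and -6.32, Lpl at 1.69, 4.53 and 4.23, and Fabp4 at 1.97, 2.85 and 3.25. Lep was well above background on 1 array and Retn on 2. The part of these markers in the values of Cd36, Cidec and Plin2 was not tested.

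Among 20 partners and cofactors of the receptor, Rxrg, Ppargc1b and Lpin1 fell over both genotypes and none rose, a share near the 11.9% of all genes called. Lpin1, a coactivator of PPAR-alpha and a phosphatidate phosphatase, was at 4.42, 1.43 and 1.41 in the Fah samples and 3.14, 1.58 and 1.16 in the FCR samples and fell by 2.38 ± 0.41 (adjusted p = 0.00761). Rxra, the main retinoid X receptor of liver, differed by -1.13 ± 0.38 (adjusted p = 0.0962), and Ppargc1a by 0.14 ± 0.52. Crebbp was higher under 2xoff/on than under off in the test, but was above background on only 3 arrays. Of 8 genes of lipolysis and ester hydrolysis, Ces1d, Ces1e and Aadac fell and Pnpla3 rose, against 11.9% of all genes called, with Ces1e falling by 4.20 ± 0.45 (adjusted p = 0.00119). Pnpla3 was not well above background in normal FCR liver, at -6.44, so the size of its rise is uncertain.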

How the data were processed

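Scanner files of 6 Agilent single-colour arrays were used. Per the file headers, the deposited processed intensity of each spot came from Agilent Feature Extraction 10.7.3.1, background-subtracted and floored above 0, with no normalization between arrays; the submitters' processing notes name version 10.5. The authors' series table, also deposited, gives log2 values with array medians of 6.45 to 6.48, made by a method not given in the sources used here, and served as an alternative. Flags for spots well above background, saturated spots (0 on every array) and outliers came from the same scanner files, as deposited.

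Control and outlier spots were dropped and repeated spots of a probe averaged. Accessions were matched to RefSeq (GRCm38.p6) for names and promoters only, because the probe design refers to mm9, and gave names to 26933 of 41174 probes. Each gene was read from the probe whose mean signal was highest. The log2 processed signal minus each array's 75th percentile was fitted in R 4.3.3 by limma 3.58.1 (lmFit, eBayes with trend, two-sided, Benjamini-Hochberg over all genes at 0.05), for genes that 2 or more arrays showed well above background. Withdrawal contrasts used a model with 1 mean per group on 6 arrays, so a group of 1 array borrowed the spread of the others. That spread holds the differences of regimen and slide between the 2 arrays of each withdrawn group. Genotype across regimens, and the contrast of regimens, used genotype plus regimen. The fit was tested on simulated data. The number of arrays limits the precision.

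All 36 genes are named. Of other lists, genes past the threshold in any comparison or among the 3 largest differences over both genotypes could be named (some are not reported here), and Acaa1a, Rxra, Ppargc1a, Fgf21, Cyp4a10 and Cyp4a14 were named after their values were seen. Members and lists were chosen with earlier results of these data known. Alternatives were normexp (offset 50), quantile or median scaling, no or a stricter filter, a common floor, the mean of probes, no trend, the authors' values, slide or regimen as a block, and leaving out each array of a pair.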

Additional observations from a re-analysis of the deposited data

Results flagged for a closer look

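Hadhb, Ehhadh and Vnn1 were each lower in both tumours than in healthy Fah liver and higher in both inflamed livers than in normal FCR liver, as were 3.81% of all genes. The tumour response minus the inflamed response was -0.80 for Hadhb, -1.30 for Ehhadh and -2.06 for Vnn1 on the log2 scale. The test of this difference passed for none of them (limma, adjusted p = 1 for each). None of the 36 genes showed the opposite pattern, which 2.67% of all genes did.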

How the results depend on the processing

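Counts of the 36 genes that passed changed as follows, with the share of all genes that passed in brackets. With single arrays left out a group held 1 array, so only the median difference of the 36 is given for those fits. In tumour against healthy liver the count of 1 became 3 with normexp, 2 with the filter at 4 arrays, and 0 with quantile normalization, the common floor, no trend or the authors' values; it was 1 to 10 when single arrays were left out, with 7 without the inflamed liver labelled off and 10 without that labelled 2xoff/on. In inflamed against normal liver the count of 1 (1.76%) became 0 with quantile normalization (0.761%) or no filter (0.867%). It was also 0 with the common floor (0%), no trend (1.49%) or the authors' values (0.351%). With single arrays left out the median was -0.49 to -0.38. Over both genotypes the count of 3 became 6 with normexp, 5 with array medians, 9 without an interaction term, 9 on slide 1 alone, 2 with quantile normalization, 2 with the authors' values and 0 with the common floor, and was 3 to 16 with arrays left out (15 and 16 without either inflamed liver). In tumour against inflamed liver the count of 0 (0.215%) became 1 with slide as a block (6.46%). With regimen as a replicate block over all 6 arrays it stayed 0, with 48 of all genes. With single arrays left out the median was -1.03 to -0.49. Between regimens the count of 0 (0.793%) became 2 with normexp (4.32%) and 1 without a filter (1.13%). With single arrays left out the median was -0.16 to 0.43, and in the comparison of the series' design it was then -1.07 to -0.69. No called value reversed. With the common floor of -5.12 no gene of any kind passed in any contrast. Of all genes, calls in tumour against healthy liver went from 776 to 472 with quantile normalization and 263 with the authors' values. In inflamed against normal liver they went from 270 to 117 and 54. For tumour against inflamed liver they went from 33 to 12 and 4, and to 987 with slide as a block. Calls over both genotypes went from 1833 to 1234 and 936. The causes of these changes were not tested.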
